A study of Homo sapiens with 18 samples.

Results

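The integrin and laminin chains measured here were 95 probe sets of 35 genes, out of 54675 probe sets on the array. A probe set was a member when the platform annotation gave it 1 gene symbol and that symbol named an integrin alpha chain, an integrin beta chain or a laminin alpha, beta or gamma chain. The rule used names and no signal. It gave 40 probe sets of 18 alpha chain genes, 32 probe sets of 7 beta chain genes and 23 probe sets of 10 laminin genes.

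RNA of untreated FTC133 cells, a human follicular thyroid carcinoma cell line kept in standard culture, was hybridized as 1 sample to 3 HG-U133 Plus 2.0 arrays named A, B and C, and these were scanned 18 times. In the first series array A was stained without any stringent washing before staining and scanned after 0, 2, 7 and 17 additional cycles (A1 to A4). Array B had 2 cycles before staining and the same additional cycles (B1 to B4), and array C had the 6 cycles of the standard protocol and 1 scan (C1). The arrays were then stained again, which is called re-labelling, and the second series followed. It held scans A5 to A8 and B5 to B8 after 0, 2, 7 and 17 additional cycles, with 2 further cycles before the second staining of array B, and scan C2 after a total of 12 cycles. All stainings comprised 3 rounds. The total number of cycles was 34 on scan A8 and 38 on scan B8.

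All 18 scans therefore share 1 cell line, 1 RNA sample and no treatment, and nothing here compares biological conditions. Scans of 1 array repeat the measurement of 1 hybridization, so that p-values measure only technical spread. The values are MAS5 signals in arbitrary units. Each scan had been scaled to a common mean (250.02 to 250.06 when 2% of the probe sets is trimmed at either end), so that only changes relative to other probe sets can be seen. The number of arrays limits the precision.

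Integrins are adhesion receptors of the cell surface, each composed of an alpha and a beta chain that span the membrane and link the matrix outside to the actin cytoskeleton inside. Laminins are cross-shaped trimers of an alpha, a beta and a gamma chain. They form the sheet-like network of the basement membrane, on which the thyrocytes of a follicle rest, and several integrins bind them. Chains of either family differ widely between tissues: some are found on most adherent cells, others mainly on leukocytes, platelets or muscle.

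The label of the cell line was checked against marker genes. Of 9 thyroid markers measured, PAX8 and NKX2-1, transcription factors of thyroid follicular cells, were above the median of all probe sets on 18 of 18 scans, with signals of 728 to 1310 for PAX8 and 533 to 926 for NKX2-1. Of the other 7, the transcription factor HHEX and the iodide transporter SLC5A5 were above it on 17 scans each, the deiodinase DIO2 on 14, thyroglobulin (TG) on 10, DIO1 on 5, FOXE1 on 2 and the thyrotropin receptor (TSHR) on 0. Of 13 leukocyte and 6 platelet markers, 0 were above the median on all scans. Of the leukocyte markers CSF1R was above it on 17 scans, CD48 on 16, MS4A1 on 13 and CD2 on 12. PTPRC was above on 8, CD8A on 5, CD3D and CD4 on 4, and CD3E and SPI1 on 2. LYZ was above on 1, and CD14 and LCP2 on 0. Of the platelet markers PF4 and GP1BA were above on 12, TREML1 on 6, GP9 and GP6 on 3 and PPBP on 0. Apart from PAX8 and NKX2-1, the counts of the thyroid markers overlapped these. The summed signal of the leukocyte list was 426 to 1879, that of the platelet list 212 to 798 and that of the thyroid list 1992 to 3465 over the 18 scans. Such sums join different numbers of unlike probe sets and are not amounts to be compared. On scan C1 PAX8 gave 757 and NKX2-1 766, and the other 7 thyroid markers 23.4 to 176. The leukocyte markers gave 1.42 to 104 and the platelet markers 5.26 to 143 on that scan. Of 8 epithelial markers 4 were above the median on all scans (EPCAM and the keratins KRT7, KRT8 and KRT18). E-cadherin (CDH1) was above it on 3 scans, CLDN4 on 1, and the keratin KRT19 and ESRP1 on 0. Of 8 endothelial markers 2 were above the median on all scans (PECAM1 and KDR), with a summed signal of the list of 370 to 1838. VWF was above it on 13 scans, TEK on 7, CDH5 on 5, ERG on 4, and EMCN and TIE1 on 1 each.

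Which chains gave a clear signal was asked first. On scan C1, which followed the standard protocol, 37 of the 95 probe sets were above the median of all probe sets, and on the other scans 36 to 45 were. Taken by gene, with the probe set of the highest mean log2 signal standing for the gene, 20 of 35 genes were above on C1 and 22 to 28 on the other scans. Taking the brightest of several probe sets tends to raise this count. No share of all genes taken in the same way is given beside it. A set of 18 probe sets from 12 genes stayed above the median on every scan (18.9% of the members, against 26.7% of all probe sets). A further 18 were above it on no scan, and 59 on some scans only. Every scan entered this choice, so that a member that lost signal relative to the median tended to drop out of the 18, and values of the 18 beside the other 77 are descriptions that the choice shaped in part. Signals of different probe sets depend on their probes, so that the levels below are not compared as amounts of transcript.

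The chains above the median on all 18 scans were the alpha chains ITGAE, ITGAV, ITGA5, ITGA6 and ITGA3, the beta chains ITGB1, ITGB5 and ITGB8, and the laminin chains LAMB1, LAMC1, LAMA4 and LAMA5. ITGB1 is the beta chain with the largest set of alpha partners. ITGA5 pairs with it in the classical fibronectin receptor, ITGA3 and ITGA6 pair with it in laminin receptors, and ITGAV is shared by the vitronectin and TGF-beta binding receptors, for which ITGB5 and ITGB8 are beta partners. LAMB1 and LAMC1 are the beta and gamma chains common to most laminins, while LAMA4 and LAMA5 are alpha chains of endothelial and of many adult basement membranes.

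**Figure D1:**
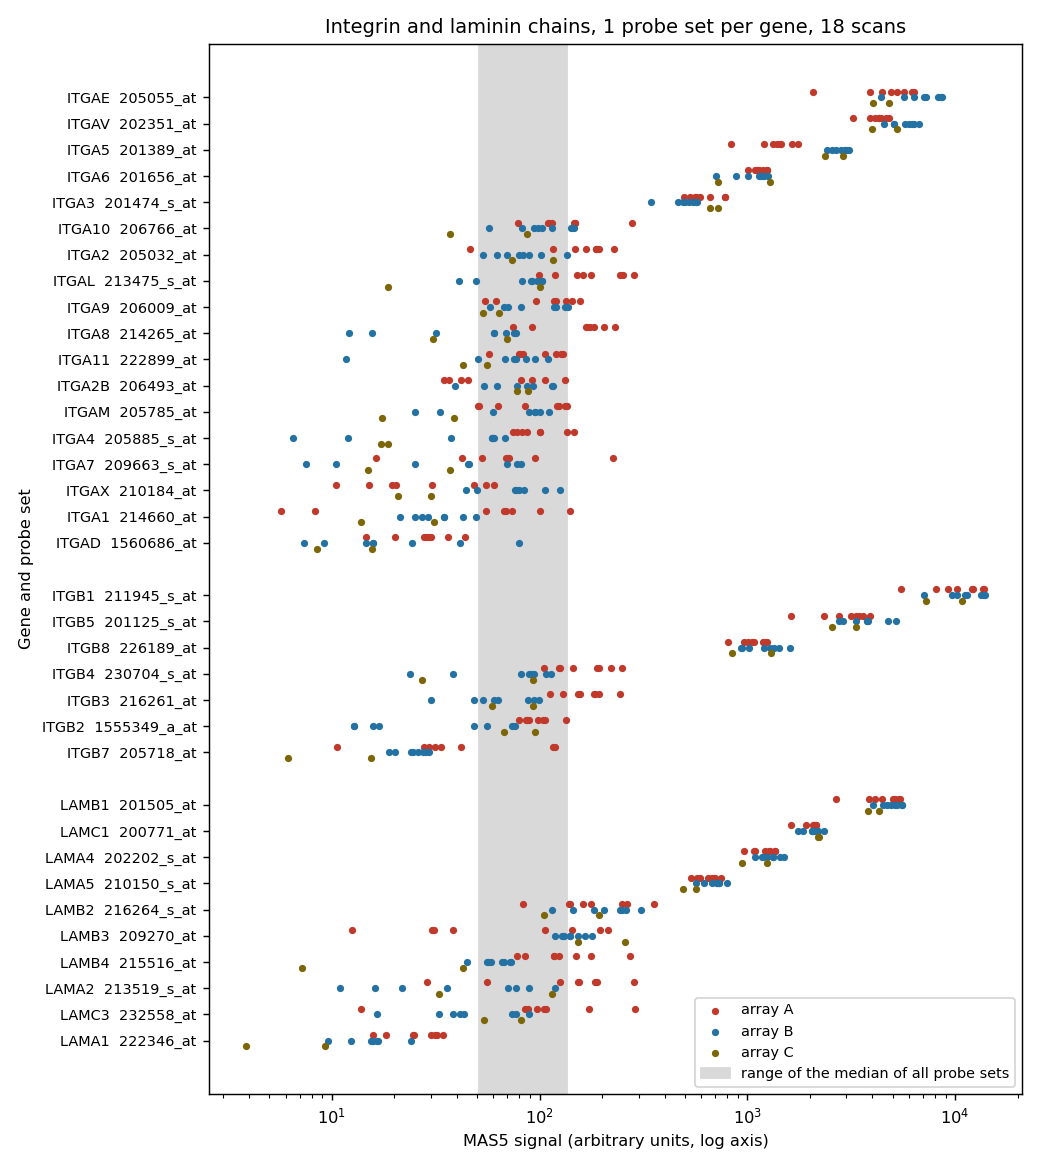
MAS5 signal (log axis, arbitrary units) of 1 probe set for each of the 35 genes on all 18 scans, 1 point per scan, with array A in red, B in blue and C in ochre. The grey band spans the medians of all probe sets over the 18 scans, 51.0 to 136. The points of 12 genes lie to its right on every scan, and those of the other genes scatter in and around it.

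ITGAE is the alpha chain known from lymphocytes within epithelia, where it pairs with ITGB7 and binds E-cadherin. Its probe set was among the brightest 2% of all probe sets on C1 (percentile 98.2), with a lowest signal of 2073, a median of 5671 and a highest of 8662 over the scans. The single ITGB7 probe set was above the median of all probe sets on 1 of 18 scans (6.13 to 119). E-cadherin was above it on 3 scans and PTPRC, the pan-leukocyte antigen CD45, on 8.

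The chains of the ITGB2 integrins of leukocytes and of the platelet fibrinogen receptor did not hold a place above the median on all scans. ITGB2, the beta chain of the leukocyte integrins, had 3 probe sets, of which the brightest was above the median on 8 scans and the other 2 on 0. Its alpha partners ITGAL, ITGAM, ITGAX and ITGAD were above on 15, 9, 6 and 1 scans by their brightest probe set, with medians of 102, 87.2, 49.3 and 22.2. ITGA2B, the platelet alpha chain that forms the fibrinogen receptor with ITGB3, was above on 11 scans and ITGB3 on 15. Their median signals were 79.7 for ITGA2B and 96.7 for ITGB3, within the range of the medians of all probe sets (51.0 to 136).

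ITGB4, the partner of ITGA6 in hemidesmosomes, was above the median on 15 scans (median signal 106), and LAMB3, a chain of the laminin to which hemidesmosomes bind, on 14 (median signal 140). The collagen receptor chains ITGA1, ITGA2, ITGA10 and ITGA11 were above on 1, 17, 16 and 9 scans. LAMA1, the alpha chain of the early embryonic basement membrane, was above on 0 scans with both of its probe sets, and LAMA2, the chain of muscle basement membrane, on 11 by its brightest probe set.

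The spread between scans differed with brightness. Over the 18 scans the SD of log2 signal had a median of 0.27 in the 18 probe sets that were always above the median and of 1.06 in the other 77. LAMC1 varied least among the genes named here, with signals of 1629 to 2350 (SD 0.13 on the log2 scale, n = 18). The median step between consecutive scans of 1 array fell below 0.05 on the log2 scale in the 18 brighter probe sets between A7 and A8 (0.04) and between B7 and B8 (0.03), against 0.51 between A1 and A2. In all members the median steps were 0.20, 0.31 and 0.79.

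The next question was what additional washing did to these signals. In the first series 0 of 95 members passed an adjusted p of 0.05 in either direction between 17 and 0 additional cycles (limma with Benjamini-Hochberg adjustment over all probe sets), and 0% of all probe sets were called higher and 0% lower. The smallest adjusted p of a member was 0.202. At an unadjusted p under 0.05, 3 members were higher and 15 were lower, where 3.5% of all probe sets were higher and 13.9% lower. With 2 arrays the fit has little power, and 0 calls do not show that signals stayed the same.

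The 3 that were higher at that level were ITGAE, ITGB5 and ITGB1, each by its brightest probe set. The signal of ITGB1 went through 5505, 8058, 10257 and 12198 on array A with 0, 2, 7 and 17 additional cycles. Array B gave 7075, 9620, 11398 and 13330. It was higher after each washing step on both arrays. The fitted change between 17 and 0 cycles was 1.03 ± 0.27 on the log2 scale (SE, 2 arrays), or 1.48 more than the median change of all probe sets, which was -0.45 (adjusted p = 0.212 by limma).

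ITGAE gave 2073, 3881, 4892 and 5676 on array A, with 4418, 5666, 7278 and 8318 on B, again a rise of the scaled value at each step. Its fitted change was 1.18 ± 0.30 (SE), 1.63 above the overall median (limma adjusted p = 0.21). ITGB5 showed 1631, 2350, 3339 and 3910 on array A, with 2756, 3766, 4728 and 5175 on B. Its fitted change was 1.09 ± 0.27 (SE), which is 1.53 above that median.

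ITGAV changed less. It gave 3227, 3900, 4287 and 4831 on array A, where each step was upward, and 4549, 5716, 6739 and 6327 on array B, where the last step was downward. Its relative change, meaning the fitted change minus that median, was 0.98. ITGA5 gave 830, 1329, 1645 and 1749 on array A, with 2419, 2809, 3101 and 3030 on B, with a relative change of 1.15. On the 2 arrays taken alone the relative changes of ITGA5 were 1.69 on A and 0.59 on B.

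ITGA6, ITGA3 and ITGB8 did not follow the other bright chains on array B. ITGA6 gave 1196, 1245, 1013 and 1096 on array A, with 1148, 1011, 887 and 705 on B, a decrease of the scaled value with each washing step. ITGA3 gave 494, 663, 779 and 780 on array A but 576, 546, 568 and 462 on B. For ITGB8 the signals were 807, 1239, 1194 and 959 on array A, with 1611, 1349, 1289 and 1198 on B. The relative changes on array B were -0.44, -0.05 and -0.16, while those on array A were 0.49, 1.27 and 0.86, so that the arrays disagree in sign for all 3 genes.

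Among the laminins LAMB1 behaved like ITGB1 and gave 2674, 3866, 4464 and 5136 on array A, with 4048, 4488, 4931 and 5259 on B (relative change 1.11). LAMC1 gave 1629, 2083, 2098 and 2137 on array A, with 1762, 2350, 2106 and 2194 on B, so that most of its change on A fell on the first 2 cycles and its highest value on B came after them (relative change 0.80). LAMA5, at 538, 746, 696 and 690 on array A, with 564, 622, 735 and 672 on B, was highest after 2 cycles on A and after 7 on B. LAMA4 was close to flat after the first scan and gave 1354, 967, 1089 and 1077 on array A, with 1181, 1092, 1186 and 1240 on B.

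LAMB2, the beta chain of synaptic and kidney laminins, gave weaker signals, 139, 264, 357 and 249 on array A, with 245, 251, 259 and 307 on B. ITGA10 gave 277, 110, 111 and 79.1 on A and 94.3, 142, 147 and 57.1 on B, and the brightest ITGB4 probe set 221, 188, 105 and 125 on A and 38.1, 107, 94.0 and 23.8 on B. For these 2 genes the courses on the arrays differed. The fitted relative changes were -0.82 ± 0.58 for ITGA10 and -0.31 ± 0.71 for ITGB4 (SE of the fitted change). The error was smaller than the change for ITGA10 and larger than the change for ITGB4.

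**Figure D2:**
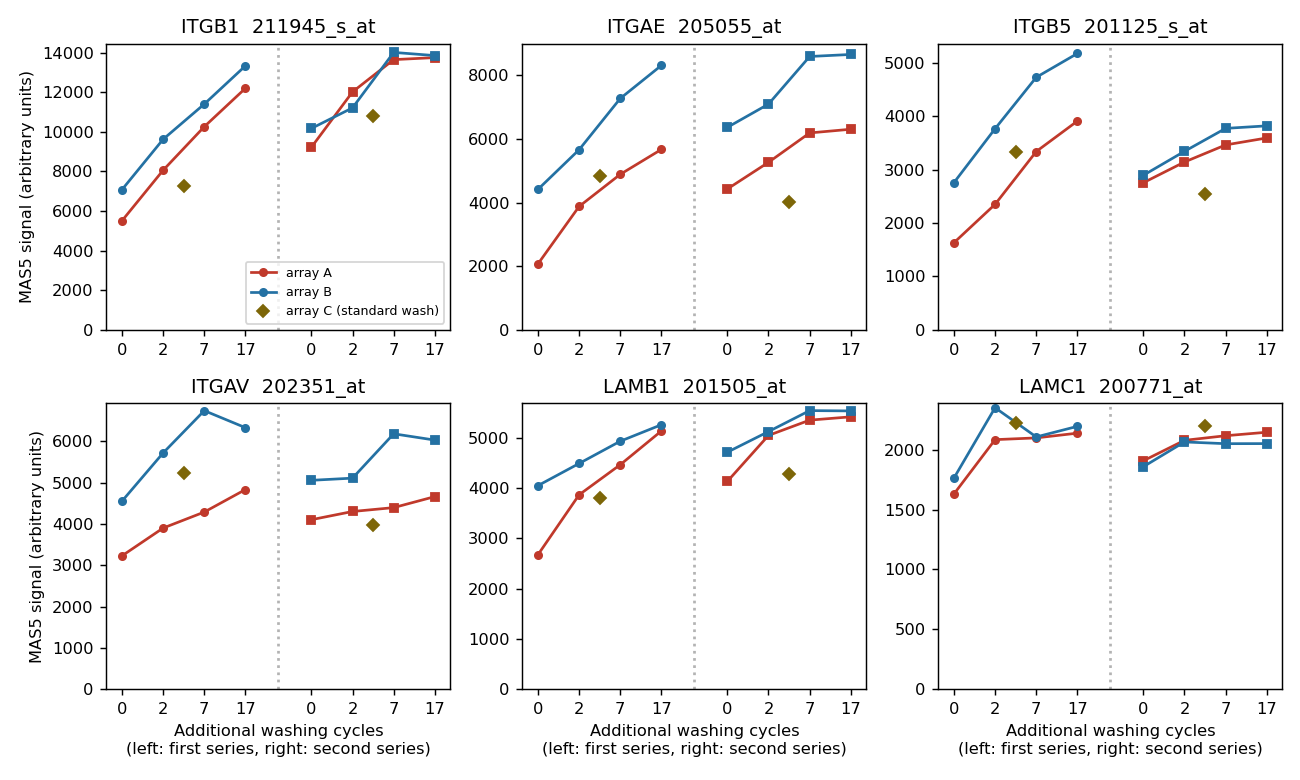
MAS5 signal (linear axis from 0) of ITGB1, ITGAE, ITGB5, ITGAV, LAMB1 and LAMC1 against the additional washing cycles, first series on the left and second series on the right of the dotted line, with array A in red, array B in blue and the standard-wash scans of array C as ochre diamonds. ITGB1 reaches 12198 on A4 and 13330 on B4, while LAMC1 stays between 1629 and 2350 on every scan.

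Seen together, the 18 probe sets that were always above the median had a median relative change of 0.87 in the first series, and 17 of the 18 changed by more than the median of all probe sets. The other 77 had a median of -0.31, with 25 above that median and 52 below it. Split instead by C1, a scan in no washing fit (a split chosen after these values were seen), the 37 members above the median of C1 had a median relative change of 0.54 with 27 above 0, and the other 58 of -0.51 with 15 above 0. Over all 95 members the median change was -0.60, against -0.45 over all probe sets. By class the median relative change was -0.34 in alpha chains, -0.13 in beta chains and 0.02 in laminin chains.

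The direction of these values rests on the scaling. On the deposited scale 13 of the 18 bright probe sets were higher after 17 than after 0 cycles, whereas with the scans anchored on the 100 brightest probe sets of C1 all 18 were lower, and all 95 members were lower too. Anchoring moved the median change of all probe sets to -1.80. With quantile normalization, which fixes the distribution of every scan, 9 of the 18 were higher and the median relative change was 0.06. The relative changes of ITGB1, ITGAV and LAMB1 then turned to -0.14, -0.33 and -0.11. The relative position of the bright chains against the median of all probe sets was the same with centring and anchoring as on the deposited scale (17 of 18 above), since these shift a whole scan.

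On the anchored scale a surviving signal can be stated, that is the signal after 17 cycles as a percentage of that after 0 cycles, relative to the 100 brightest probe sets. In the first series the 18 bright members kept a median of 59.5% on array A, with 46.5% on B, and the other 77 a median of 14.6% on A and 26.8% on B. For ITGB1 85.4% survived on A and 74.5% on B, for LAMC1 50.6% and 49.2%, and for ITGA6 35.3% and 24.3%. ITGAE on array A was the only bright member at or above 100% (106%).

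The change was also set beside that of probe sets of like brightness, taken as deciles of the signal on C1. In the top decile the median relative change of all probe sets was 1.25 on array A, with 0.47 on B. ITGB1 lay above this by 0.51 on A and 0.71 on B, ITGAE by 0.81 and 0.71, and ITGB5 by 0.62 and 0.71. LAMA4 lay below it, by -0.97 on A and -0.13 on B, and ITGB8 by -0.39 and -0.63. In the 18 bright members the median difference from the decile was 0.13 on A and 0.06 on B, so that as a group they lay near other probe sets of like brightness. In all 95 members it was -0.11 on A and -0.04 on B.

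**Figure D3:**
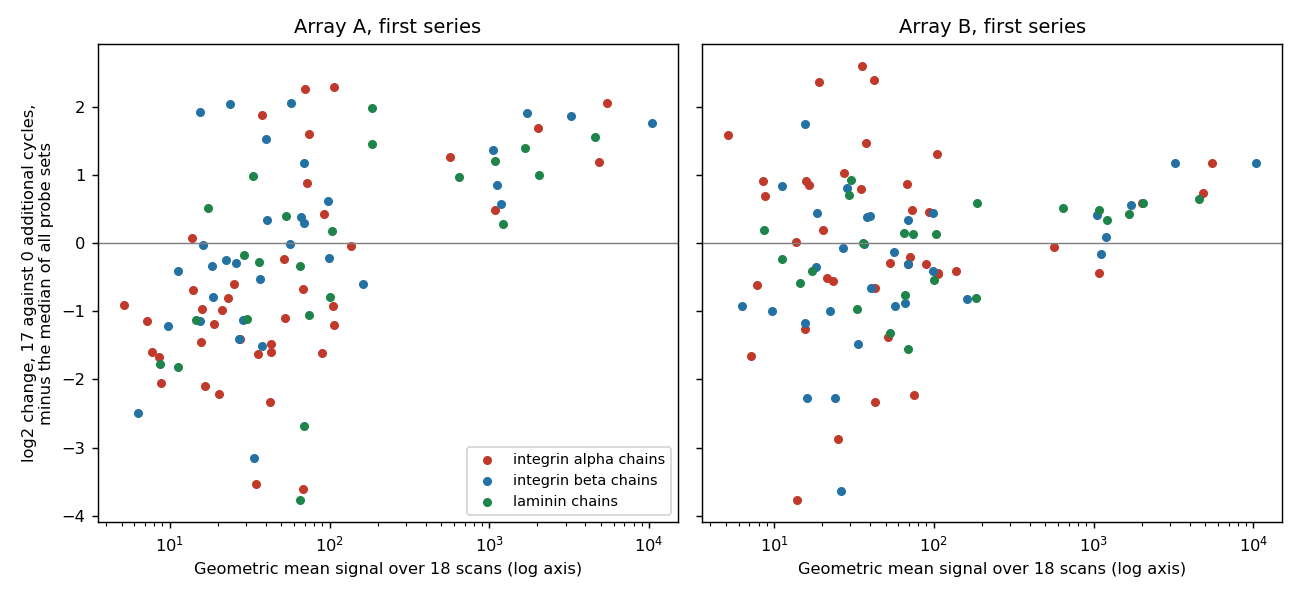
Change of log2 signal between 17 and 0 additional cycles in the first series minus the median change of all probe sets, for each of the 95 members against its geometric mean signal over 18 scans (log axis), on array A (left) and array B (right). Points at the bright end lie mostly above 0, with medians of 1.24 on A and 0.50 on B in the 18 bright members, and dim members spread over several log2 units.

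Arrays A and B often disagreed on the dim members. In the first series 23 of 95 members changed by more than the median of all probe sets on both arrays, 32 by less on both, and 40 had opposite signs. In the 18 bright members the counts were 14, 1 and 3. The member with the most negative relative change in the fit was ITGB1 216178_x_at at -2.32, a dim probe set of the same gene whose brightest probe set was at 1.48. ITGA1 226731_at followed at -2.22 and LAMA2 213519_s_at at -2.11.

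In the second series, after re-labelling, 0 of 95 members passed the threshold (limma), again with 0% of all probe sets called in each direction, and the smallest adjusted p of a member was 0.329. At an unadjusted p under 0.05, 3 members were higher and 5 lower, where 2.55% of all probe sets were higher and 11.6% lower. ITGB1 gave 9214, 12012, 13641 and 13744 on array A, with 10168, 11207, 14006 and 13846 on B, so that the signal levelled off between 7 and 17 cycles. Its relative change was 0.75, and that of ITGAE 0.72.

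ITGAE gave 4430, 5270, 6194 and 6310 on array A, with 6368, 7101, 8598 and 8662 on B. ITGB5 gave 2754, 3143, 3463 and 3593 on A and 2894, 3342, 3772 and 3820 on B, and LAMB1 4132, 5046, 5350 and 5416 on A and 4712, 5123, 5539 and 5533 on B. In each the step between 7 and 17 cycles was the smallest of the series on both arrays. ITGAV gave 4101, 4300, 4394 and 4660 on A and 5054, 5107, 6179 and 6027 on B. LAMC1 gave 1907, 2078, 2116 and 2145 on A and 1857, 2064, 2050 and 2050 on B, and was nearly flat after the first 2 cycles.

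ITGA5 gave 1206, 1389, 1455 and 1436 on array A, with 2559, 2944, 2676 and 2946 on B. On the 8 second-series scans of arrays A and B, ITGA6 lay between 1094 and 1259 and LAMA4 between 1215 and 1508. The 18 bright probe sets had a median relative change of 0.38, and 17 of 18 lay above the overall median change of -0.24. The other 77 had a median of -0.11. On the anchored scale all 18 bright members were lower after 17 cycles here too, with a median of 65.0% surviving on A and 55.0% on B. Whether the scanner saturation noted above affected the probe sets used as the anchor in this series was not tested.

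Whether the washing change differed between the series was examined with an interaction term in 16 scans. Of 95 members 0 passed (smallest limma adjusted p 0.954), and 0% of all probe sets did. At an unadjusted p under 0.05 there were 5 members, all with a more positive change in the second series. Of all probe sets 5.21% passed that level, 1940 with a more positive and 907 with a more negative change. The 5 members were probe sets of ITGB5, LAMA4, ITGB3, ITGA1 and ITGB1, of which ITGB5 201124_at alone was always above the median. Its signals were 170, 208, 212 and 204 on array A, with 192, 155, 121 and 153 on B in the second series. In the first series they were 268, 289, 148 and 116 on A and 179, 154, 115 and 84.2 on B.

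Re-labelling was compared over the 9 pairs of scans of the same array and step, meaning the same number of additional cycles. The second scan of a pair had also been through more cycles in total. Totals were 17 on A5 against 0 on A1, 21 on B5 against 2 on B1, and 12 on C2 against 6 on C1. Re-labelling and these further cycles cannot be told apart in this comparison. Of 95 members 3 were called lower in the second series and 0 higher, where 0.541% of all probe sets were called lower and 0.294% higher (limma, adjusted p under 0.05). All 3 were dim probe sets of genes mentioned above: ITGAX 1563003_at, ITGB4 204989_s_at and ITGA2B 216966_at, which were above the median of all probe sets on 1, 4 and 3 scans. At an unadjusted p under 0.05, 12 members were higher and 14 lower, where 8.34% of all probe sets were higher and 11.3% lower.

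ITGAX 1563003_at gave 23.9, 15.0, 12.6 and 10.8 on array A in the second series, against 51.5, 33.0, 19.3 and 14.8 in the first. On array B it gave 8.0, 14.9, 13.6 and 19.0 in the second series, against 13.6, 20.7, 34.5 and 58.2 in the first, and on array C 13.6 against 19.3. The second series was lower in 9 of 9 pairs, although the values of the 2 series overlap on both A and B. The fitted change was -0.89 ± 0.16 (SE, 9 pairs), with a limma adjusted p of 0.0392. With washing this probe set went down on array A and up on array B in both series. The brighter ITGAX probe set, 210184_at, was higher in the second series in 6 pairs and lower in 3. Its fitted change was 0.05 ± 0.29 (SE; limma adjusted p = 0.9475).

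ITGB4 204989_s_at gave 31.8, 39.3, 17.1 and 21.3 on array A in the second series, against 39.0, 118, 120 and 106 in the first. On array B it gave 11.9, 8.49, 5.73 and 4.88, against 94.0, 10.7, 14.1 and 16.2, and on array C 13.1 against 29.1. It was lower in 9 of 9 pairs, by -1.61 ± 0.30 (SE; limma adjusted p = 0.0467). The brightest ITGB4 probe set, 230704_s_at, was higher in the second series in 8 of 9 pairs (0.62 ± 0.26, SE; limma adjusted p = 0.23), so that probe sets of 1 gene went in opposite directions.

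ITGA2B 216966_at gave 37.9, 12.9, 9.75 and 13.3 on array A in the second series, against 138, 78.7, 72.7 and 59.7 in the first, without overlap. On array B it gave 17.6, 4.30, 9.95 and 10.5, against 67.1, 41.0, 63.4 and 7.58, and on array C 19.7 against 27.9. The fitted change was -1.94 ± 0.37 (SE; limma adjusted p = 0.0488), with 8 of 9 pairs lower. Another ITGA2B probe set, 206494_s_at, was lower by -0.91 with 8 of 9 pairs (limma adjusted p = 0.0738). The relative changes of the 4 ITGA2B probe sets ran from -1.91 to 0.42.

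These 3 calls were at the edge of the threshold. None of them passed without array A, without array B, without the pairing of scans, or with the array as the unit, where 0 of all probe sets were called. Leaving out single pairs of arrays A or B left 0 or 1 of the 3, and leaving out array C left 2.

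None of the bright chains was called with re-labelling. The brightest ITGB1 probe set came nearest, higher in the second series in 9 of 9 pairs by 0.40 ± 0.11 (SE; limma adjusted p = 0.108), with 10806 on C2 against 7268 on C1. The other 2 bright ITGB1 probe sets did not share this, with fitted changes of 0.03 for 1553678_a_at (5 pairs higher, 4 lower) and -0.10 for 1553530_a_at (3 higher, 6 lower). The brighter LAMB1 probe set was also higher in 9 of 9 pairs (0.24 ± 0.10, SE; limma adjusted p = 0.238), while the other, 211651_s_at, was higher in 3 and lower in 6 (-0.07 ± 0.10). By their brightest probe set ITGAE was higher in 8 of 9 (0.32 ± 0.14), ITGA6 in 8 of 9 (0.27 ± 0.13) and LAMA4 in 8 of 9 (0.25 ± 0.11). In the same way ITGAV, ITGA5, ITGB5, LAMC1 and LAMA5 were higher in 4 pairs and lower in 5, with fitted changes between -0.03 and 0.02.

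**Figure D4:**
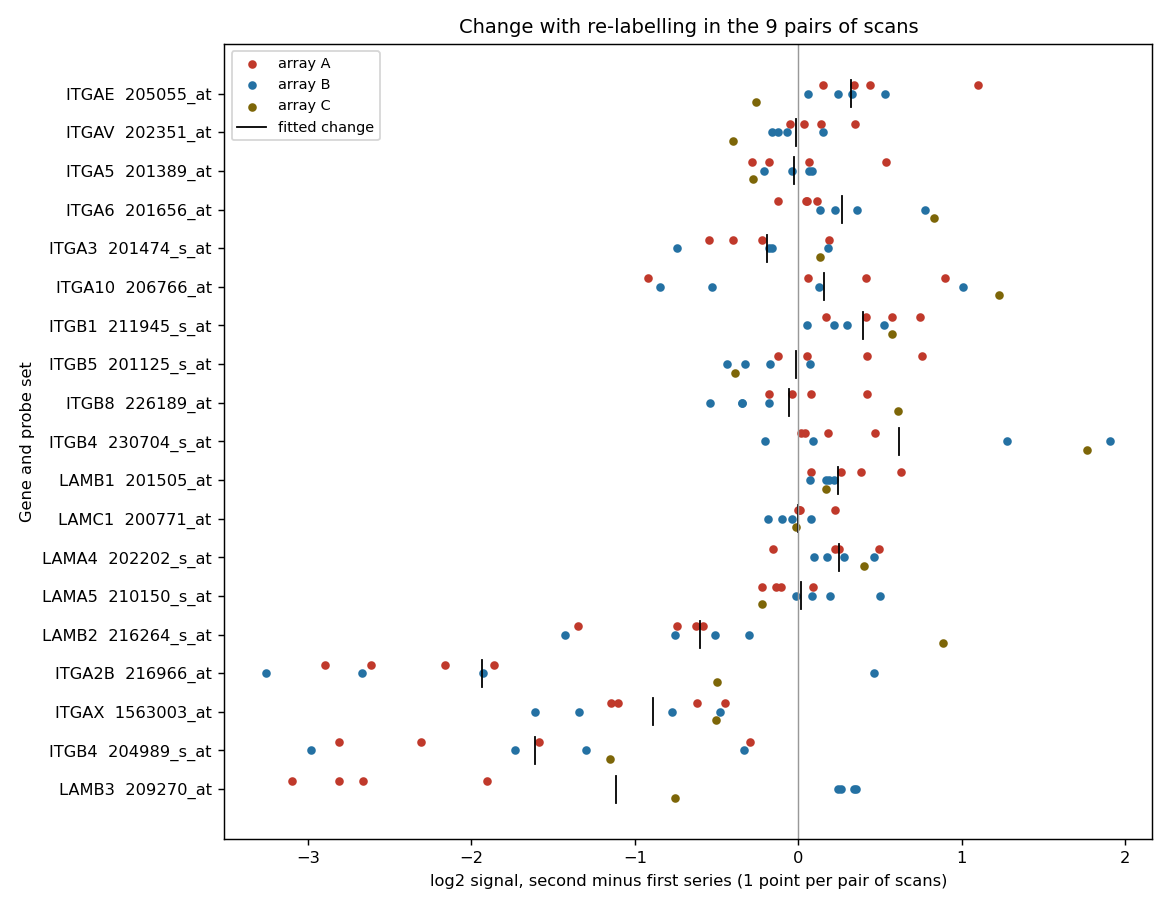
Difference of log2 signal, second minus first series, in each of the 9 pairs of scans of the same array and washing step (array A red, B blue, C ochre), with the fitted change as a black bar, for the 15 genes of the highest signal in their class, the 3 called probe sets and LAMB3. Points of the bright chains lie mostly close to 0, and LAMB3 has its 4 array A points below -1.9 and its 4 array B points above 0.

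LAMB3 209270_at shows how far a change between the series can belong to 1 array. On array A it gave 38.2, 30.5, 31.0 and 12.4 in the second series, against 143, 214, 196 and 107 in the first. On array B it gave 179, 165, 140 and 154 in the second series, against 140, 131, 119 and 128 in the first. The series did not overlap on either array, but the second was the lower one on A and the higher one on B. The fitted change over all pairs was -1.11 ± 0.46 (SE; limma adjusted p = 0.222), and its mean was -2.62 on A, 0.30 on B and -0.75 on C.

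How many members separated the series on 1 array in this way was counted after this had been seen. On array A 0 members were higher in all 4 scans of the second series than in all 4 of the first, and 7 were lower, where 3.69% of all probe sets were higher and 6.18% lower. On array B 9 were higher and 7 lower, where 7.18% of all probe sets were higher and 8.84% lower. The shares of the members were near those of all probe sets or rested on few members. With each scan centred on its median 1 member was higher on array A, where 4.79% of all probe sets were. These counts were not tested. LAMB3 was the only member to separate the series on both arrays.

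The arrays themselves differed in several members. Signals of all 8 scans of array A were above those of all 8 scans of array B in 10 members, where 10.4% of all probe sets behaved so, and below in 3, where 2.35% did. With each scan centred on its median 2 members were above and 14 below, where 2.64% and 16.9% of all probe sets were. ITGB5 214020_x_at and LAMA4 216081_at were above on both scales. ITGA5 and 2 of the ITGB1 probe sets, 1553678_a_at and 1553530_a_at, were below on both.

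ITGB5 214020_x_at was the clearest case. On array A it gave 2220, 2953, 3133 and 3128 in the second series, against 3359, 5070, 7676 and 8288 in the first. On array B it gave 965, 908, 762 and 766, against 759, 1027, 995 and 926, and on array C 890 against 816. Thus arrays B and C had nearly the same level, which did not exceed 1027, and array A was 4.57 times array B (geometric means of 8 scans each), or 2.66 times with each scan centred on its median. In the second series every scan of array A was below every scan of the first series there.

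The other ITGB5 probe sets differed less: 201125_s_at was 0.79 times, 201124_at 1.39 times and 214021_x_at 1.38 times as bright on array A as on array B. With each scan centred these became 0.46, 0.81 and 0.80 times, so that 201124_at and 214021_x_at turned to the dimmer side on A. In the suffix of Affymetrix names, x marks a probe set with probes that also match other transcripts. The share of any cross-hybridization in the difference between arrays was not tested.

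ITGA5 lay at 830 to 1749 on the 8 scans of array A and at 2419 to 3101 on those of array B, with 2376 and 2881 on array C. The geometric mean on A was 0.48 times that on B, or 0.28 times after centring. ITGB1 1553678_a_at gave 945 to 1028 on array A, with 1184 to 1469 on B, a narrow range on each array, although the brightest ITGB1 probe set gave 5505 on A1 and 12198 on A4. Array A also had no cycle before its first staining, so that array and initial washing cannot be told apart.

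**Figure D5:**
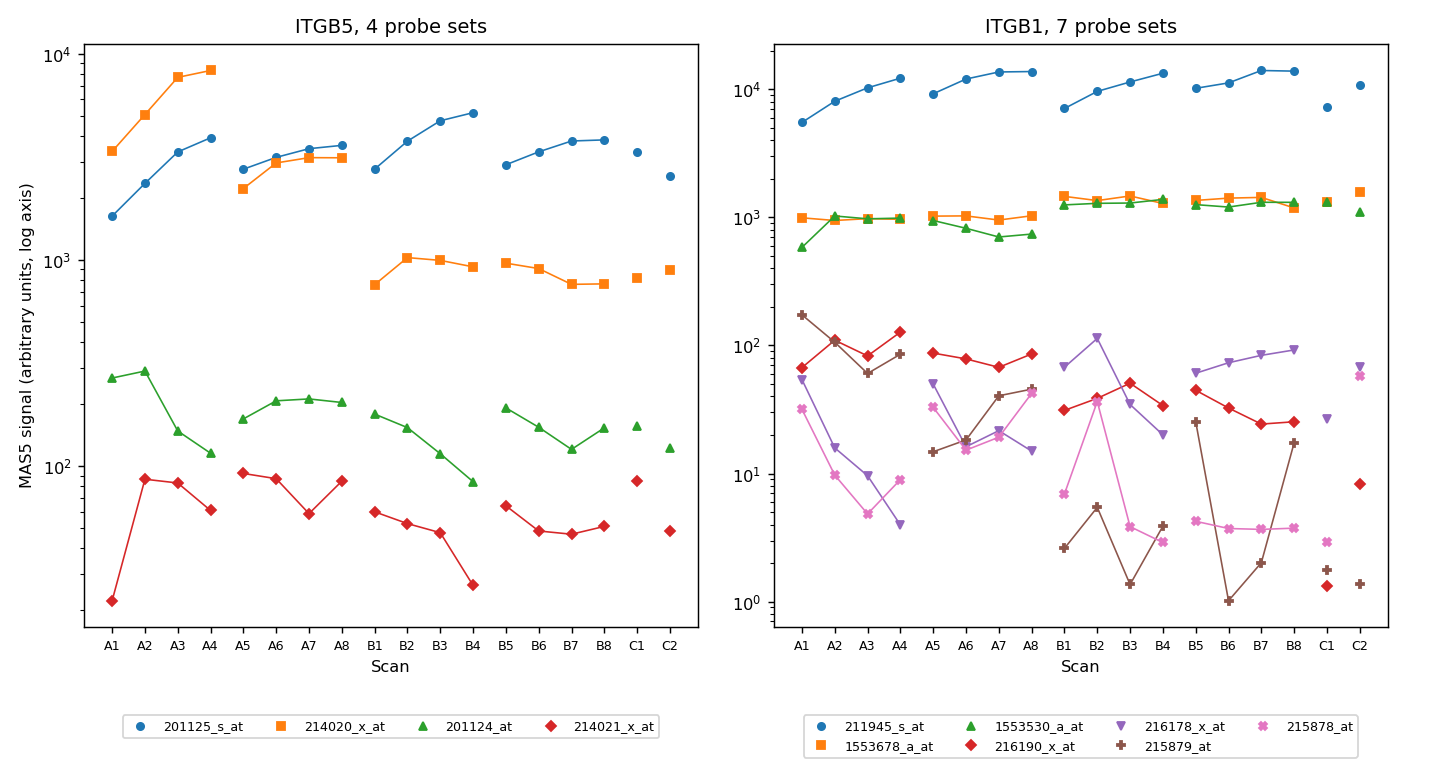
MAS5 signal (log axis) of the 4 ITGB5 probe sets (left) and the 7 ITGB1 probe sets (right) on all 18 scans, with lines joining scans of 1 array and series. For ITGB5 the x_at probe set reaches 8288 on scan A4 and stays at or below 1027 on arrays B and C, and for ITGB1 3 probe sets are bright on every scan and 4 are dim.

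Probe sets of 1 gene often differed. Of 25 genes with more than 1 probe set, 18 had first-series relative changes on both sides of 0. ITGB1 is the extreme case, with geometric means from 9.68 to 10412 over its 7 probe sets, of which 3 were always above the median. In ITGB5 the 2 probe sets 201125_s_at and 201124_at were both always above the median, but gave first-series changes of 1.09 and -1.15 on the deposited scale. By contrast the 2 LAMB1 probe sets had relative changes of 1.11 and 0.92, and the 2 LAMC1 probe sets 0.80 and 0.85.

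A group of 5 lists of genes that work with these chains were read beside them: none of their genes was called in any of the 4 comparisons (limma). Each gene of the lists stands by its brightest probe set, which tends to raise the counts above the median. Of all single probe sets 26.7% were above it on all scans. Of 24 adhesion adaptors measured, 17 were above the median on all scans. FERMT2 and VCL (vinculin), which link integrins to actin, and the actin crosslinker ACTN1 were brightest. Their first-series relative changes were 1.68, 1.70 and 1.36, and the median of the list was 0.92, with 19 above and 5 below 0. At an unadjusted p under 0.05 in the first series, 5 of these 24 were higher and 1 was lower, where 3.5% of all probe sets were higher and 13.9% lower.

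Of 19 adhesion kinases and GTPase regulators 15 were always above the median. The small GTPases RHOA, RAP1A and RAC1 were brightest, with relative changes of 1.70, 1.84 and 1.79, and the list's median was 0.95 (18 above, 1 below; 6 higher and 0 lower at that level). Of 16 integrin partners and traffic proteins 13 were always above the median, led by CAV1 (caveolin), the tetraspanin CD63 and ARF6, at 1.41, 1.68 and 1.23 (median 0.75, 15 above and 1 below, with 4 higher and 1 lower).

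Of 26 basement membrane components and integrin ligands 15 were always above the median. TGFBI and FN1 (fibronectin), secreted ligands of integrins, and CCN1 had relative changes of 1.79, 1.84 and 1.55, but the median of the list was 0.25 (17 above, 9 below, with 4 higher and 1 lower). FN1 ranged between 8328 and 44627 over the 18 scans. The last list held 8 measured genes, which were syndecans, sarcoglycans, netrins and BCAM. The 5 that were always above the median were all syndecans or sarcoglycans. The syndecan SDC4 and the sarcoglycans SGCE and SGCB were brightest, at 1.41, 1.25 and 1.02 (median 1.00, 6 above and 2 below, with 3 higher and 1 lower). These values depend on the scaling in the same way as those of the bright integrin and laminin chains. The lists were not set beside probe sets of like brightness. In the top decile of C1 the median relative change of all probe sets was 1.25 on array A and 0.47 on B.

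With re-labelling the median relative changes of the same lists were 0.07, 0.14, 0.10, 0.08 and -0.02. Over all probe sets the median change with re-labelling was -0.02, and over the 95 members -0.01.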

How the data were processed

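The authors hybridized RNA of FTC133 cells to 3 HG-U133 Plus 2.0 arrays and deposited 1 MAS5 signal per probe set and scan, on a linear scale. The signals had been scaled by the authors to an equal trimmed mean per scan. The version of MAS5 is not given in the sources used here. All 18 columns were matched to scans by title, and no 2 scans were averaged. Detection calls were not used here. Log2 signals of all 54675 probe sets, with no offset and no filter, were fitted in limma 3.58.1 (R 4.3.3), and calls used 0.05 for the p adjusted over all of them after Benjamini and Hochberg. Washing was 17 against 0 additional cycles over 8 scans of arrays A and B per series, with a factor for the step and a block for the array. The interaction used 16 scans, and re-labelling used 9 pairs of scans as blocks.

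The block stands for the same physical array. The deviations of arrays A and B from their step means correlated at r = 0.33 to 0.77 across probe sets in all 28 pairs of steps. A relative change is a change minus the median change of all probe sets. The fits were also run on simulated data with independent noise around the means of each array. Such data do not carry the correlation between scans of 1 array, so that they cannot show whether the p-values hold here.

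Genes were named through the platform annotation, with RefSeq names of GRCh38.p14 for 41043 of the 41097 probe sets that carry 1 symbol, where 0 symbols changed. A gene was represented by its probe set of the highest mean log2 signal over 18 scans. Signals in all scans of arrays A and B are given for the 6 alpha, 4 beta and 5 laminin genes highest by that measure, with the second series of some as a range or left out, and for called members; of each list the 3 highest genes are named. Members named for an array or series that stands apart were chosen after their values were seen. Members and lists were chosen with earlier results of these data known.

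The alternatives tried were quantile normalization, centring on the median, anchoring on the 100 probe sets brightest on C1, an offset of 16, the brighter probe sets only, a variance trend with robust moderation, no block, time as a line, leaving out scans, pairs or arrays, the array as the unit, and other choices of probe set per gene. The counts of non-overlapping scans and the split by C1 were added after the data had been seen. Python 3.11.15, numpy 2.4.6, pandas 2.3.3 and matplotlib 3.10.9 were used.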

Additional observations from a re-analysis of the deposited data

How the results depend on the processing

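With the block for the array left out, 0 members were called for washing in either series and 0 for re-labelling, against 3 lower for re-labelling with the pairs as blocks. The 3 calls also came to 0 with the array as the unit and among the brighter probe sets only (all 3 are dim), and to 1 with an offset of 16; without array A or B 0 were left, without array C 2, and without single pairs 0 to 2. With re-labelling, a variance trend with robust moderation called 1 member higher, where 836 of all 54675 probe sets were called higher and 998 lower. Anchoring on the 100 brightest probe sets called 21 members higher, where 10977 of all were called higher and 544 lower. For washing, anchoring called 45 members lower in the first series and 36 in the second, where 29870 and 23386 of all were. The variance trend called 6 and 4 members higher, where 1954 and 1301 of all were. Time as a line called 2 members higher and 3 lower in the first series, where 679 and 1151 of all were. The median relative change of the members in the first series was -0.15, and 0.17 (0.1661) among the brighter probe sets. That of the interaction was -0.02, against 0.0432 with quantile normalization, -0.0543 among the brighter probe sets and -0.0002 to 0.2163 without single scans. The mean over all probe sets put 12 of 35 genes above the median change in the first series, against 21 by the representative probe set. After centring, 2 members were above on array A and 14 below, and 1 was higher in the second series on array A. Quantile normalization turned the relative change of 7 bright chains in the first series, to -0.3271 for ITGAV, -0.5475 for ITGA6, -0.1383 for ITGB1, -0.2009 for ITGB8, -0.112 for LAMB1, -0.0567 for LAMC1 and -0.3609 for LAMA4. In the second series it gave -0.1774 for ITGAV, -0.1722 for ITGA6, -0.0935 for ITGB1, -0.0875 for LAMB1, -0.0263 for LAMC1 and -0.0393 for LAMA4. ITGA6 also turned with an offset of 16 (-0.0703) and among the brighter probe sets (-0.2023). Without single scans the first-series value ran from -0.3123 to 0.3707 for ITGA6, from -0.195 to 0.9436 for ITGB8 and from -1.0341 to 0.3461 for ITGB4. In the second series it ran from -0.4183 to 0.2226 for ITGB8, from -0.6101 to 0.0614 for ITGB4 and from -0.0027 to 0.3776 for LAMA5. The cause of these changes was not tested, apart from those that follow from how a setting is built. The 3 arrays, of which 2 carry the washing steps, and signals near the median of all probe sets limit what can be seen.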
